A study of Rattus norvegicus with 78 samples.

Results

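The change in gene expression between postnatal day (P) 14 and P7 was measured in the hippocampus of control rats, on 5 arrays at P14 and 5 at P7, 10 of the 78 arrays of the study. The rats were male pups of Low Responders, a line selectively bred for low locomotor activity in a new environment, and their dams drank plain water. The same step was measured in paroxetine-exposed hippocampus (5 arrays at P14, 4 at P7), whose dams drank the antidepressant at 10 mg per kg per day from 1 week before conception until weaning at P21, and in control amygdala (5 and 5 arrays). All of these rats were male Low Responders, so no result here separates age from what is particular to that line. Neither the litter of a pup nor the number of animals behind an array is labelled, so p-values describe array-to-array spread. The fit pools that spread over all 39 hippocampal arrays, or all 78 for the amygdala, and not over the 5 arrays a group alone. It can thus understate the error of a gene whose arrays spread widely in the groups compared. Values per array are normalized intensities on a linear scale, differences are log2(P14) minus log2(P7) ± the standard error of the limma fit, and higher or lower is used of a gene with a limma p under 0.05 after Benjamini-Hochberg adjustment over all features.

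The second postnatal week is the period when the rat hippocampus goes from building neurons to wiring them. Neurogenesis outside the dentate gyrus is over, axons and dendrites form most of their synapses, NMDA receptors exchange their subunits, GABA turns from a depolarising to a hyperpolarising transmitter, and oligodendrocytes begin to wrap axons in myelin. The pups still live on milk, with ketone bodies and lactate as brain fuel, and circulating thyroid hormone is high.

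Of 26419 features tested, 5715 (21.6%) were called, 2811 (10.6%) higher at P14 and 2904 (11%) lower, and among 9627 named genes 962 (9.99%) were higher and 1156 (12%) lower. The median difference over all features was 0.01. Bright features were called more often, with 1.93% of the dimmest 10% and 51.7% of the brightest 10% called, so a list of abundant transcripts meets a higher background than the average one. On 4023 features (15.2%) the groups did not overlap. The groups separated on the first principal component of the 10 arrays, but the P14 arrays differed among themselves. Pairs of P14 arrays correlated at 0.947 to 0.981 and pairs of P7 arrays at 0.978 to 0.984. On the second component P14 arrays 1 to 3 lay at 32.6 to 35.1, array 4 at -9.2 and array 5 at -61.7. Array 4 lay nearer to arrays 1 to 3 than to array 5, so arrays 4 and 5 are not a uniform set. No label names a split of the P14 arrays. With P14 arrays 1 to 3 alone 5426 features were called and with arrays 4 and 5 alone 5621, of which 2819 were called in the same direction by both (52% and 50.2%) and 62 in opposite directions. A random-sequence control probe read 43.4 to 46.2 on the P14 arrays and 43.4 to 44.3 on the P7 arrays (exact permutation p = 0.0873, two-sided, 0.262 after adjustment over 3 array measures), so readings near these values cannot be told from background. Dependence of a call on the set of P14 arrays was checked for 124 genes of the text, and its values are given where found. Other names, most of them beside the count of a list, were not checked one by one.

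Among the genes named here the 3 largest rises were those of the myelin genes Cldn11, Mbp and Mobp. Of 22 measured genes of myelin and mature oligodendrocytes 13 were higher at P14, 1 was lower and 8 were not called, with a median difference of 0.86 against 0.00 over all named genes. Mbp, the basic protein that compacts the myelin sheath, read 6425, 8178, 6658, 8439 and 19407 on the P14 arrays, against 932, 844, 1024, 1013 and 844 on the P7 arrays. All P14 arrays lay above all P7 arrays, and array 5 read far above the other P14 arrays. The difference was 3.27 ± 0.17 (adjusted p = 4.07e-17), a mean 9.64-fold rise, and it was 2.92 with P14 arrays 1 to 3 only. Cldn11, the claudin of the tight junctions between myelin layers, read 2422, 2862, 2790, 2805 and 4505 on the P14 arrays, against 380, 203, 346, 459 and 196 on the P7 arrays. The groups did not overlap, and the difference was 3.33 ± 0.25 (adjusted p = 4.06e-13). Mobp, a small protein of compact myelin, followed at 3.16 ± 0.20 with 951 to 3128 at P14 against 155 to 210 at P7.

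Other members of the list had smaller differences. Mog, which sits on the outer face of the sheath and appears late, read 276 to 630 at P14 against 166 to 241 at P7 (0.98 ± 0.16, adjusted p = 1.41e-05). Ndrg1 was the member called lower (-0.53 ± 0.17), though none was lower with P14 arrays 4 and 5 alone. Opalin, Tf, Ermn, Gjb1, Car2, Cryab, Tspan2 and Hapln2 were not called, at -0.25 to 0.46. These names beside a count of the list were added after their values were seen, as were those given for other small counts. Cntnap1 and Gjc3, on no list, were among the largest rises. Cntnap1 (Caspr), the axonal protein of the junction beside the node of Ranvier, read 1055 to 1436 at P14 against 203 to 292 at P7 (2.33 ± 0.14, adjusted p = 1.73e-15). Nfasc, the neurofascin of nodes and of the glial side of that junction, differed by 1.17 ± 0.09, and Kcna1, the potassium channel that flanks it, by 1.61 ± 0.10. Gjc3, a connexin of oligodendrocytes, read 263 to 511 at P14 against 52.7 to 110 at P7 (2.36 ± 0.22), and its lowest P7 readings were near that of the random probe.

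Genes of oligodendrocyte precursors went both ways. Of 7 measured, Gpr17, Sox10 and Cnksr3 were higher, Cspg5 was lower and 3 were not called. Gpr17, a receptor of precursors that have committed to myelinate and are not yet mature, read 5211, 5108, 4758, 6330 and 5499 on the P14 arrays, against 2069, 1786, 1942, 2016 and 2053 on the P7 arrays, a difference of 1.44 ± 0.10 (adjusted p = 1.89e-13). Sox10, the transcription factor of the whole lineage, read 2033 to 3528 at P14 against 1045 to 1446 at P7 (1.09 ± 0.13, adjusted p = 6.24e-08), while Cspg5, a proteoglycan also made by neurons and astrocytes, read 5824 to 7230 at P14 against 8098 to 10999 at P7 (-0.60 ± 0.10, adjusted p = 1.44e-05). Pdgfra, the receptor that marks precursors, was not analysed here. In whole tissue a rise in cells of a type and a rise in RNA per cell cannot be told apart, and this holds for each list of cell type genes.

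**Figure D1:**
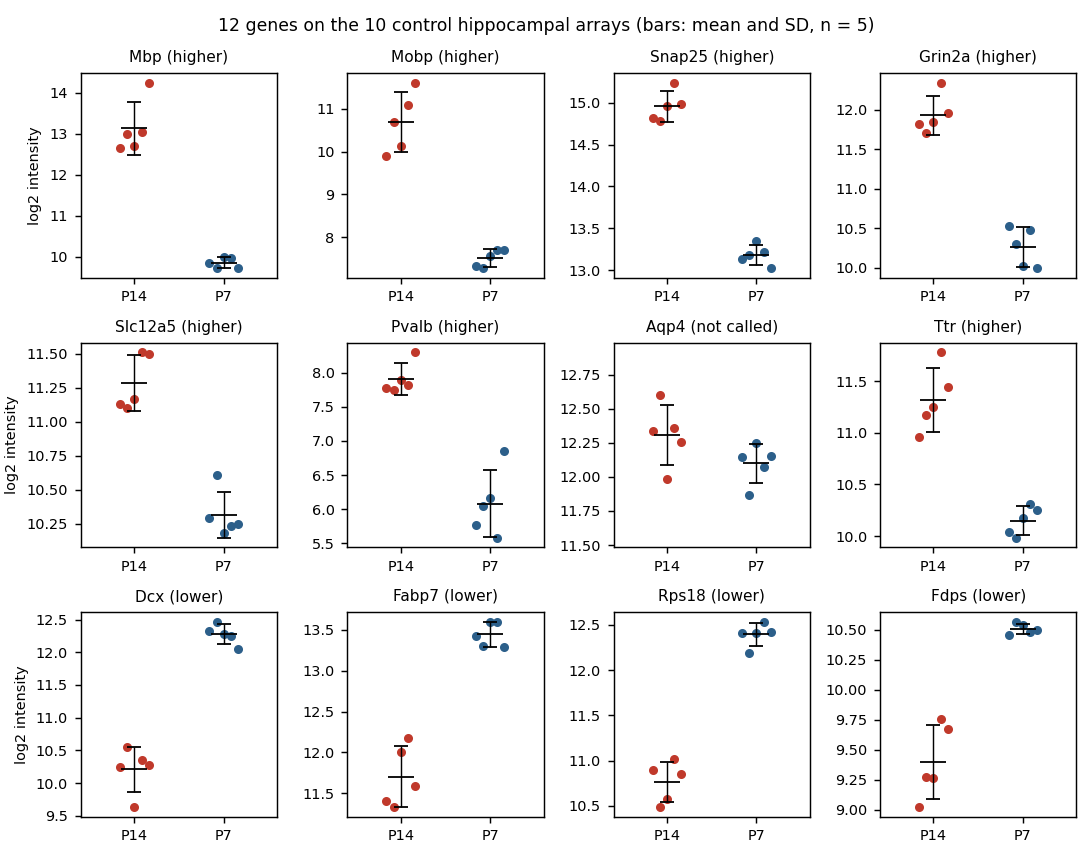
Log2 intensity (vertical axis) of 12 genes on each control hippocampal array, P14 in red on the left and P7 in blue on the right of each panel, with the mean and SD of 5 arrays; the vertical scale differs between panels. The 2 ages do not overlap in 11 panels, and they overlap for Aqp4, which was not called.

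Most genes of transmitter release rose. Of 32 measured 20 were higher, 2 were lower and 10 were not called (median 0.63), and the mean log2 level of the list was 12.28, 12.35, 12.37, 12.56 and 12.62 on the P14 arrays, against 11.86, 11.94, 11.9, 11.89 and 11.86 on the P7 arrays. Each P14 mean lay above each P7 mean, with arrays 4 and 5 highest. Snap25, a SNARE protein that drives vesicle fusion, read 28829, 28209, 31846, 38767 and 32334 on the P14 arrays, against 8997, 9300, 10392, 9484 and 8308 on the P7 arrays, a 3.43-fold rise (1.78 ± 0.09, adjusted p = 6.38e-17). Syn1, which tethers the reserve pool of vesicles, read 12131 to 15549 at P14 against 4258 to 5370 at P7 (1.47 ± 0.10, adjusted p = 5.29e-14). Dnm1, the dynamin that cuts off vesicles in endocytosis, differed by 1.45 ± 0.11, and Syt1, the calcium sensor of release, by 1.11 ± 0.10. Among the lower members was Slc17a6 (VGLUT2), the glutamate transporter of vesicles that prevails early, which read 276, 345, 384, 533 and 355 on the P14 arrays, against 1029, 1100, 1065, 981 and 1104 on the P7 arrays (-1.51 ± 0.18, adjusted p = 4.65e-08). Slc17a7 (VGLUT1), its counterpart in mature hippocampal neurons, was among the 20 that rose (1.13 ± 0.10). Slc17a6 also marks thalamic neurons, and among 12 measured genes of thalamus, striatum and cortex 3 were higher (Lef1, Ppp1r1b, Penk) and 3 lower (Slc17a6, Prkcd, Adora2a). The part of tissue outside the hippocampus in these values was not tested.

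Among 26 measured genes of postsynaptic scaffolds, adhesion and kinases 18 were higher, only Homer2 was lower and 7 were not called (median 0.58). Cnksr2, a scaffold of the postsynaptic density, read 2871 to 3702 at P14 against 936 to 1265 at P7 (1.58 ± 0.11, adjusted p = 1.89e-13). Synpo, which forms the spine apparatus, differed by 1.17 ± 0.10, and Nrgn (neurogranin), which holds calmodulin in spines, by 1.16 ± 0.12. Camk2a, the kinase of long-term potentiation, read 37135 to 48979 at P14 against 21166 to 27964 at P7 (0.78 ± 0.10, adjusted p = 1.9e-07). Homer2 read 616 to 1020 at P14 against 1379 to 1671 at P7 (-0.94 ± 0.19, adjusted p = 0.000292). Dlg4 (PSD-95), the best known scaffold, was not called and its groups overlapped, at 8703 to 12535 at P14 against 7901 to 10092 at P7 (0.22 ± 0.10, adjusted p = 0.13); with P14 arrays 4 and 5 alone it was 0.45 with adjusted p = 0.00977. Wipf3, which binds WASP-family proteins that nucleate actin, was on no list and read 13943 to 18221 at P14 against 1563 to 3211 at P7 (2.78 ± 0.14, adjusted p = 1.61e-17).

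Receptor genes differed by subunit. Of 25 measured glutamate receptor genes and auxiliary subunits 9 were higher, 3 were lower (Cacng4, Grik1, Grik2) and 13 were not called, and the list median was 0.07. Grin2a, the NMDA receptor subunit of mature synapses, read 3602, 3330, 3694, 5202 and 3965 on the P14 arrays, against 1480, 1260, 1041, 1428 and 1019 on the P7 arrays, a 3.18-fold rise (1.67 ± 0.12, adjusted p = 2.57e-13). Grin2b, the subunit that prevails early, read 6845, 6249, 5999, 8842 and 8599 on the P14 arrays, against 8038, 7160, 6779, 10131 and 6863 on the P7 arrays. The Grin2b readings overlapped (-0.10 ± 0.13, adjusted p = 0.682). Cacng2 (stargazin), which carries AMPA receptors to the synapse, read 6122 to 7994 at P14 against 2552 to 3390 at P7 (1.34 ± 0.10, adjusted p = 3.19e-13). Grin2c also rose (0.82 ± 0.17). The list median was -0.16 with P14 arrays 1 to 3 and 0.24 with arrays 4 and 5.

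For inhibition, 7 of 21 measured genes of GABA receptors, glycine receptors and chloride transport were higher, 3 were lower (Glra2, Gabra3, Gabrg1) and 11 were not called. With P14 arrays 1 to 3 alone 5 were higher and 4 lower, and with arrays 4 and 5 alone 9 and 1. Gabra5, an α subunit abundant early and outside synapses, read 1295 to 1934 at P14 against 1798 to 2327 at P7 and was not called (-0.27 ± 0.11, adjusted p = 0.0768); it was called lower with P14 arrays 1 to 3 alone (-0.38, adjusted p = 0.0201). Glra2, the glycine receptor subunit of the immature brain, read 152 to 229 at P14 against 277 to 517 at P7 (-1.01 ± 0.19, adjusted p = 0.000128). Slc12a5 (KCC2), the exporter that lowers chloride in neurons, read 2238, 2193, 2302, 2919 and 2894 on the P14 arrays, against 1252, 1559, 1164, 1205 and 1218 on the P7 arrays, a rise of 0.97 ± 0.16 (adjusted p = 7.82e-06). Slc12a2 (NKCC1), the importer that raises it, read 242 to 441 at P14 against 209 to 425 at P7 and was not called (0.14 ± 0.19, adjusted p = 0.689).

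Most ion channel genes rose. Of 46 measured genes of voltage-gated sodium, potassium and HCN channels 27 were higher, 2 were lower (Kcnk2 and Scn3a) and 17 were not called (median 0.51). With P14 arrays 4 and 5 alone 25 were higher and none lower. Kcnj6 (GIRK2), the potassium channel opened by G proteins, read 1221 to 1577 at P14 against 385 to 490 at P7 (1.67 ± 0.12, adjusted p = 5.32e-13). Kcnab2, an auxiliary subunit of axonal potassium channels, differed by 1.63 ± 0.12. Scn3a, the sodium channel of the fetal brain, read 338 to 484 at P14 against 491 to 688 at P7 (-0.58 ± 0.17, adjusted p = 0.0117), and with P14 arrays 4 and 5 alone it was -0.39 with adjusted p = 0.255. Scn1a, the channel of fast-spiking interneurons, was not called (0.51 ± 0.26).

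Among 32 measured genes of calcium signalling 16 were higher, 4 lower (Calb1, Atp2b4, Calm2, Pcp4) and 12 not called. With P14 arrays 4 and 5 alone 16 were higher and 2 lower. Vsnl1, a neuronal calcium sensor, read 7984 to 9958 at P14 against 2145 to 3126 at P7 (1.76 ± 0.10, adjusted p = 1.01e-15). Atp2b2, a calcium pump, differed by 1.63 ± 0.09, and Cacna1a, the P/Q-type channel of release sites, by 1.60 ± 0.10. Calb1 (calbindin), a calcium buffer of dentate granule cells and part of CA1, fell, at 567, 466, 535, 637 and 487 on the P14 arrays, against 860, 942, 941, 1073 and 753 on the P7 arrays (-0.76 ± 0.15, adjusted p = 0.000233). Wfs1, a protein of the endoplasmic reticulum that marks CA1 pyramidal cells, rose (925 to 1878 at P14 against 314 to 488 at P7, 1.61 ± 0.13), so the subfield genes did not move as one. Of 12 measured subfield genes 4 were higher (Wfs1, Rgs14, Nr3c2, Grik4) and 2 lower (Calb1, Pcp4).

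Interneuron genes rose for some markers and fell for others. Of 20 measured 9 were higher, 3 lower (Calb2, Dlx5, Reln) and 8 not called. With P14 arrays 1 to 3 alone 7 were higher and 5 lower, and with arrays 4 and 5 alone 10 and 1. Pvalb (parvalbumin), which marks fast-spiking basket cells, read 219, 215, 238, 226 and 316 on the P14 arrays, against 54.4, 66.1, 71.5, 47.8 and 116 on the P7 arrays. The lowest P7 readings were at the level of the random probe, and the rise was 1.83 ± 0.17 (adjusted p = 1.47e-10). Sst, the peptide of dendrite-targeting interneurons, read 2518 to 4123 at P14 against 1371 to 1821 at P7 (0.80 ± 0.12), and Lamp5, a marker of neurogliaform cells, read 417 to 602 at P14 against 137 to 208 at P7 (1.66 ± 0.16). Calb2 (calretinin), found in interneurons and in young granule cells, read 615, 895, 797, 1082 and 983 on the P14 arrays, against 2491, 1717, 1498, 2260 and 1807 on the P7 arrays, a difference of -1.16 ± 0.18 (adjusted p = 6.69e-06).

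Genes of the brain matrix went both ways. Of 10 measured matrix genes 4 were lower (Has2, Ncan, Cspg5, Ptprz1), only Tnr was higher and 5 were not called. Ncan (neurocan), the chondroitin sulphate proteoglycan of the young matrix, read 10929 to 14011 at P14 against 24742 to 29199 at P7 (-1.09 ± 0.10, adjusted p = 1.21e-10). Has2, a hyaluronan synthase, read 50.9 to 92 at P14 against 163 to 245 at P7 (-1.59 ± 0.21, adjusted p = 2.58e-07), and its P14 readings reached down to near the random probe. Tnr (tenascin-R), which cross-links the mature net around neurons, read 1338 to 2423 at P14 against 753 to 889 at P7 (1.24 ± 0.12, adjusted p = 1.35e-10). Acan (aggrecan), the main proteoglycan of perineuronal nets, was not called (0.44 ± 0.29, adjusted p = 0.314).

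**Figure D2:**
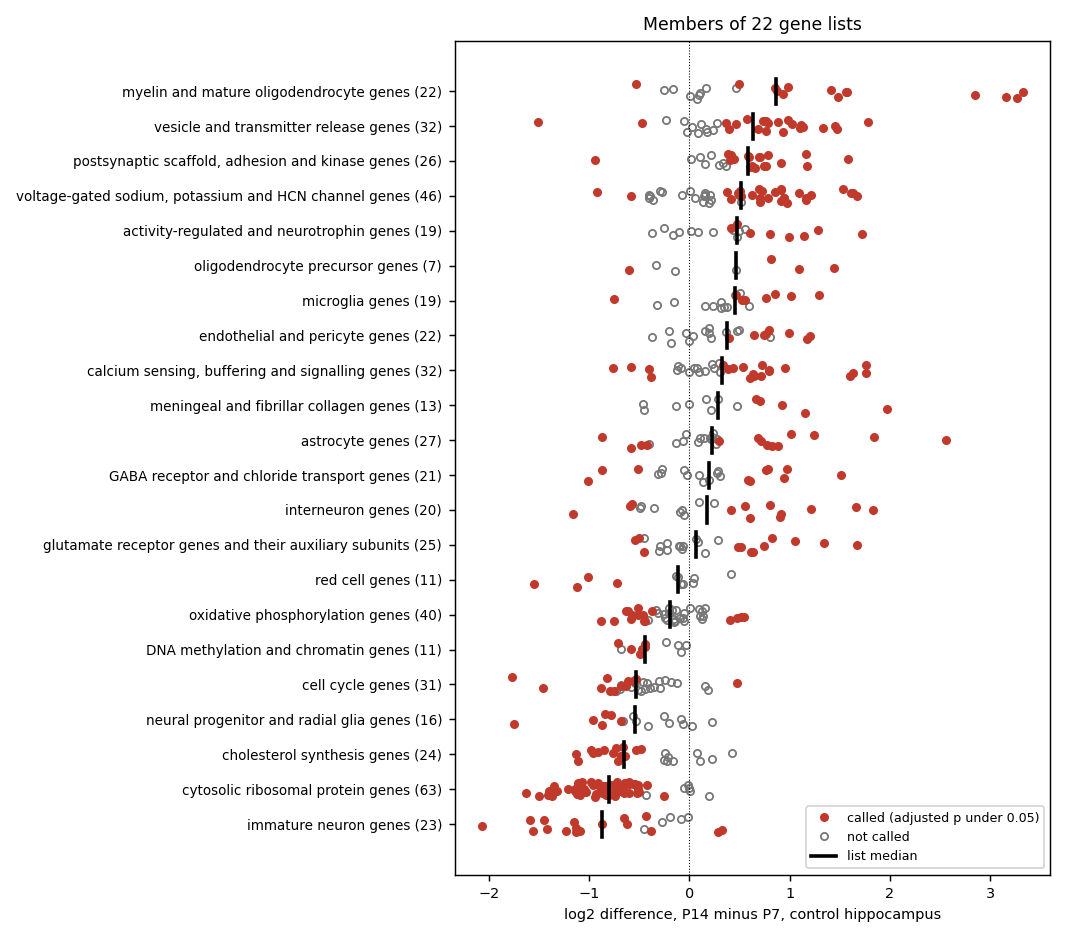
Log2 difference, P14 minus P7, in control hippocampus (horizontal axis) for each measured member of 22 gene lists (number of genes in brackets); filled points were called at an adjusted p under 0.05, open points were not, and bars mark list medians. The myelin list has the highest median (0.86) and the immature neuron list the lowest (-0.87).

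Most genes of immature neurons fell. Of 23 measured 16 were lower, 2 were higher (Neurod2 and Mllt11, by at most 0.32) and 5 were not called, with a median of -0.87. With P14 arrays 4 and 5 alone 15 were lower and none higher. The mean log2 level of the list was 12.44, 12.42, 12.39, 12.57 and 12.56 on the P14 arrays, against 13.21, 13.35, 13.2, 13.31 and 13.3 on the P7 arrays. The groups were apart by more than the spread within either. Dcx (doublecortin), which stabilises microtubules in migrating and newly formed neurons, read 1211, 1507, 791, 1304 and 1234 on the P14 arrays, against 5148, 5667, 4966, 4843 and 4247 on the P7 arrays. It was 4.18-fold lower at P14, a difference of -2.07 ± 0.19 (adjusted p = 5.92e-11), and no gene named here fell further. Dpysl5 (CRMP5), a collapsin response mediator of growth cones, read 4612 to 4907 at P14 against 13034 to 15912 at P7 (-1.59 ± 0.11, adjusted p = 1.76e-13). Tmsb10, which binds free actin, differed by -1.56 ± 0.12, Cd24, a surface protein of neuroblasts, by -1.45 ± 0.12, and Sox11, a transcription factor of newborn neurons, by -1.42 ± 0.19. Of the 10 largest falls chosen by the rule for named genes, 5 were in genes on no list. Plppr3, a membrane protein of growing axons, read 179 to 372 at P14 against 692 to 940 at P7 (-1.60 ± 0.18), and Fnbp1l, an F-BAR protein that bends membranes, read 1426 to 2430 at P14 against 4372 to 6479 at P7 (-1.71 ± 0.14). Rims3, a small active zone protein, differed by -1.61 ± 0.16, Ppp1r14b, an inhibitor of protein phosphatase 1, by -1.67 ± 0.11, and Bex4 by -1.65 ± 0.23.

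Of 16 measured genes of progenitors and radial glia 6 were lower, none was higher and 10 were not called (median -0.54). Fabp7, the fatty acid binding protein of radial glia and young astrocytes, read 2708, 2572, 4106, 4631 and 3081 on the P14 arrays, against 11015, 10134, 12430, 12424 and 10045 on the P7 arrays, a difference of -1.75 ± 0.13 (adjusted p = 9.04e-13). Hes5, a target of Notch signalling, read 419 to 695 at P14 against 836 to 1048 at P7 (-0.87 ± 0.18), and Id3 differed by -0.84 ± 0.14.

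Cell cycle genes were dim and most were not called. Of 31 measured 11 were lower, 1 was higher and 19 were not called, with a median of -0.53; 28 of the 31 differences were negative. The mean log2 level of the list was 6.99, 6.97, 7.01, 7.14 and 7.21 on the P14 arrays, against 7.65, 7.57, 7.53, 7.6 and 7.56 on the P7 arrays. Arrays 4 and 5 were the highest at P14 and still lay below each P7 array. Rrm2, the ribonucleotide reductase subunit made in S phase, read 93.7, 82.4, 114, 85.5 and 239 on the P14 arrays, against 440, 250, 409, 356 and 516 on the P7 arrays, a difference of -1.77 ± 0.27 (adjusted p = 2.65e-06). Array 5 was high, and the difference was -2.0 with arrays 1 to 3 alone. Cdc20, which activates the anaphase-promoting complex, read 81.7, 135, 138, 125 and 122 on the P14 arrays, against 376, 275, 286, 397 and 313 on the P7 arrays, a difference of -1.46 ± 0.18 (adjusted p = 5.11e-08). Plk1, a mitotic kinase, read 184 to 348 at P14 against 331 to 568 at P7 and overlapped on array 5 (-0.88 ± 0.22, adjusted p = 0.00324). It was not called with P14 arrays 4 and 5 alone (-0.63, adjusted p = 0.143), and the list then had 5 members lower in place of 11. Tyms, thymidylate synthase, differed by -0.82 ± 0.21. The member that rose was Ccnd2, a D-type cyclin (4667 to 6068 at P14 against 3426 to 4507 at P7, 0.47 ± 0.10). Mki67 and Top2a were not analysed here. Dnmt1, the maintenance DNA methyltransferase of replicating cells, led the 6 of 11 chromatin genes that were lower, at 455 to 567 at P14 against 632 to 1151 at P7 (-0.71 ± 0.15). Of those 11, 3 were lower with P14 arrays 4 and 5 alone, without array 5 or with quantile normalization, and 2 with only the arrays compared.

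Promoters of cell cycle genes often hold the CHR element, which binds the DREAM complex and its MYB-containing successor, next to CCAAT boxes. In the RefSeq windows of assembly GRCr8, from 250 bases before to 50 after the annotated start, the CHR letters TTTGAA on either strand stood in 12 of the 24 cell cycle genes with a window (50%) and in 16.2% of 7841 measured genes with one. CCAAT, searched the same way, stood in 16 of 24 (66.7%), against 39.3%, and the variant TTTAAA in 4 of 24 (16.7%), against 12.4%. Among the 9 called lower with a window 3 held TTTGAA (33.3%) and 6 held CCAAT (66.7%), and among the 15 not called lower 9 held TTTGAA (60%) and 10 held CCAAT (66.7%). The matches for Cdc20 (chr5:137255818-137255877, minus strand) and Plk1 (chr1:186147637-186147696, plus strand) are shown in 60 bases each, with TTTGAA in capitals, because these were the members called lower with the largest falls that held it. A match is a run of letters and not a measured site.
Cdc20: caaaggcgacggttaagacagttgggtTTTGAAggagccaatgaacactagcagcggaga
Plk1: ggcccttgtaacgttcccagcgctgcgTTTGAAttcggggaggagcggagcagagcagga

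Ribosomal protein genes fell almost as a block. Of 63 measured 57 were lower, none was higher and 6 were not called, against 12% of all named genes called lower, and the median difference was -0.80. The mean log2 level of the list was 10.86, 10.79, 10.78, 10.94 and 10.7 on the P14 arrays, against 11.56, 11.59, 11.62, 11.69 and 11.62 on the P7 arrays. The ages did not overlap, and the list fell with either set of P14 arrays, with a median of -0.82 from arrays 1 to 3 (54 lower) and -0.79 from arrays 4 and 5 (53 lower). Rps18, of the small subunit near the decoding site, read 1906, 1431, 1532, 2066 and 1852 on the P14 arrays, against 5456, 4679, 5436, 5937 and 5465 on the P7 arrays, a difference of -1.63 ± 0.11 (adjusted p = 2.19e-14). For the large subunit, Rpl8 read 1011 to 1407 at P14 against 2996 to 3440 at P7 (-1.50 ± 0.15, adjusted p = 4.47e-10) and Rpl10 read 770 to 1308 at P14 against 2547 to 2997 at P7 (-1.41 ± 0.13, adjusted p = 4.57e-11). Rpl14 differed by -1.40 ± 0.14 and Rps14 by -1.37 ± 0.19. The 6 not called were Rpl36, Rps15, Rps26, Rpl9, Rps27 and Rpl28, at -0.43 to 0.20. Many of these genes have processed pseudogenes of almost the same sequence, which the probes may not separate.

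Ribosomal protein genes are known for a run of pyrimidines at the start of transcription, which gives their mRNAs the 5′ terminal oligopyrimidine tract through which the mTOR pathway sets their translation. A run of 8 or more C or T bases on the coding strand that touches the 20 bases from 7 before to 12 after the annotated start stood in 35 of the 51 members with a window (68.6%), against 10.5% of the 7841 measured genes, in 30 of the 45 called lower (66.7%) and in 5 of the 6 not called lower (83.3%). This search was chosen after the values were seen. The 4 members with the largest falls that hold such a run are printed beside Rpl28, one of the 5 that hold one and were not called (0.20), picked by hand. Each line gives 30 bases on either side of the start, with the run in capitals, for Rps18 (chr20:4933715-4933774, plus strand), Rpl10 (chrX:157205820-157205879, plus), Rpl14 (chr8:129163590-129163649, plus), Rps14 (chr18:56498230-56498289, plus) and Rpl28 (chr1:78083503-78083562, minus).
Rps18: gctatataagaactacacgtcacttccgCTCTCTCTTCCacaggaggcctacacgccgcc
Rpl10: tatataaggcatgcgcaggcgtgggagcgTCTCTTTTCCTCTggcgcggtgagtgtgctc
Rpl14: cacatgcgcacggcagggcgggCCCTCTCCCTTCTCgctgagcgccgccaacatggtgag
Rps14: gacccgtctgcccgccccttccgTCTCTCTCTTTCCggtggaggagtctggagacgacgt
Rpl28: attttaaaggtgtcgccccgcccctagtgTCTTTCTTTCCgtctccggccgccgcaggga
The run was thus no rarer among the 6 members not called lower than among those that fell.

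**Figure D3:**
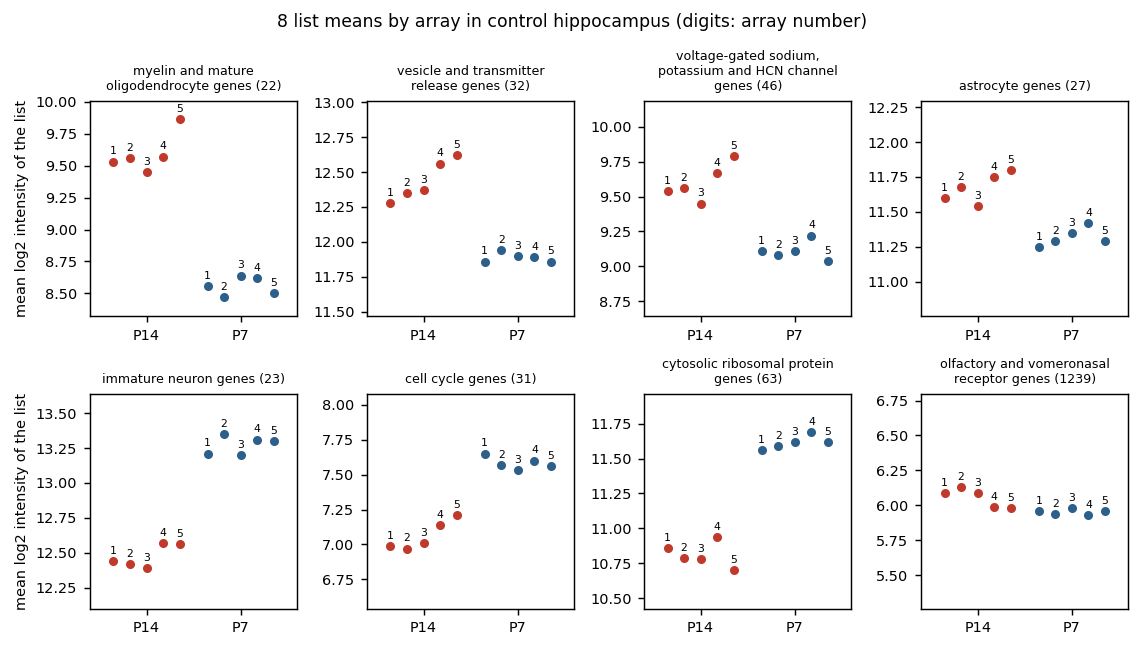
Mean log2 intensity (vertical axis) of 8 gene lists on each control hippocampal array, P14 in red on the left and P7 in blue on the right, with array numbers. In 7 lists the ages do not overlap, and for olfactory and vomeronasal receptors P14 arrays 1 to 3 lie at 6.09 to 6.13 and arrays 4 and 5 at 5.99 and 5.98, beside P7 arrays at 5.93 to 5.98.

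Most genes of cholesterol synthesis fell. Of 24 measured 15 were lower, none was higher and 9 were not called (median -0.65). Fdps, which makes farnesyl pyrophosphate, read 519, 619, 615, 865 and 817 on the P14 arrays, against 1405, 1518, 1485, 1430 and 1442 on the P7 arrays, a difference of -1.11 ± 0.12 (adjusted p = 8.25e-09). Acat2, which makes acetoacetyl-CoA at the head of the pathway, read 819 to 1176 at P14 against 1936 to 2105 at P7 (-1.13 ± 0.18). Dhcr7, the last enzyme of one branch, read 1515 to 2254 at P14 against 2894 to 4308 at P7 (-0.98 ± 0.12, adjusted p = 1.08e-07). The count lower was 15 with P14 arrays 1 to 3 and 10 with arrays 4 and 5. Srebf2, the transcription factor of the pathway, was not called. In the promoter windows TCACNNNA, a loose form of the sterol element, stood in 9 of 17 members (52.9%), against 35.5% of the 7841 genes, CCAAT in 14 of 17 (82.4%), against 39.3%, and CACCCCA, a search added after the values were seen, in 4 of 17 (23.5%), against 6.31%. Of the 12 members called lower with a window 5 held TCACNNNA, 9 CCAAT and 2 CACCCCA, and of the 5 not called lower 4, 5 and 2 did.

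Energy genes went both ways. Of 40 measured genes of oxidative phosphorylation 12 were lower, 4 were higher (Ndufa10, Ndufs7, Ndufs5, Ndufc2) and 24 were not called (median -0.19). Sdhc, a membrane anchor of complex II, read 1295 to 1570 at P14 against 2121 to 2704 at P7 (-0.75 ± 0.11, adjusted p = 2.33e-06), Atp5po, of the stalk of ATP synthase, read 229 to 385 at P14 against 439 to 642 at P7 (-0.88 ± 0.16), and Atp5mc1, of its rotor, differed by -0.63 ± 0.11. Among 31 genes of glycolysis, ketone bodies and lactate 6 were higher and 5 lower (Acat1, Ldha, Eno1 and Ldhb among them), and those lower were 3 with P14 arrays 4 and 5 alone or without P14 array 1, and 2 without P7 array 5. Pfkp, the phosphofructokinase of platelets and brain, read 4480 to 5803 at P14 against 2222 to 3257 at P7 (0.98 ± 0.12), and Got1, of the malate-aspartate shuttle, differed by 0.95 ± 0.11. Acat1, the mitochondrial thiolase that uses ketone bodies, read 710 to 1473 at P14 against 1654 to 1914 at P7 (-0.93 ± 0.18). Eno2, the enolase of neurons, was among those higher and Eno1, that of other cells, among those lower. The share called was 40% in the oxidative phosphorylation list and 35.5% in the fuel list, against 22% of all named genes. Both lists are bright, and 51.7% of the brightest 10% of features were called, so these counts do not set energy genes apart.

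Astrocyte genes were mixed, with 10 of 27 higher, 4 lower (Aldh1l1, Apoe, Slc1a3, Cbs) and 13 not called (median 0.23). With P14 arrays 4 and 5 alone 14 were higher and 2 lower. Ntsr2, a neurotensin receptor of astrocytes, read 1165, 1064, 975, 1310 and 2181 on the P14 arrays, against 152, 281, 245, 282 and 164 on the P7 arrays. It rose by 2.56 ± 0.17 (adjusted p = 5.65e-14), and array 5 was again the highest. Gjb6 (connexin 30), a late gap junction protein, read 805 to 1326 at P14 against 183 to 341 at P7 (1.84 ± 0.24, adjusted p = 1.41e-07), Clu (clusterin) differed by 1.24 ± 0.09 and Slc1a2 (GLT-1), the main glutamate transporter of mature astrocytes, by 1.01 ± 0.11. Slc1a3 (GLAST), the transporter that prevails early, fell (-0.48 ± 0.12). Gfap read 2736 to 3438 at P14 against 1419 to 1876 at P7 (0.82 ± 0.12, adjusted p = 3.14e-06), and Aqp4, the water channel of endfeet, read 4054 to 6216 at P14 against 3734 to 4877 at P7 and was not called (0.21 ± 0.12, adjusted p = 0.252). Chi3l1, a chitinase-like protein secreted by astrocytes, was on no list and read 780 to 1089 at P14 against 96.1 to 233 at P7 (2.43 ± 0.19, adjusted p = 1.03e-12). Anxa11, a calcium-dependent membrane-binding annexin, read 1220 to 1955 at P14 against 236 to 400 at P7 (2.12 ± 0.16).

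Of 19 microglial genes 7 were higher and only Tyrobp was lower, with 42.1% called against 22% of all named genes. With P14 arrays 1 to 3 alone 3 were higher and none lower, and without P14 array 2 or without array 5 there were 4 higher, while the list median was 0.45 with all arrays and 0.48 with arrays 1 to 3. Ctss, a lysosomal protease, read 850 to 1258 at P14 against 495 to 601 at P7 (1.01 ± 0.11, adjusted p = 1.01e-08), Csf1r, the receptor microglia need to survive, read 712 to 1249 at P14 against 510 to 577 at P7 (0.76 ± 0.15, adjusted p = 0.000276), and Cd37 differed by 1.29 ± 0.22. Of 22 genes of endothelium, pericytes and smooth muscle 8 were higher and none lower, led by Slco1a4, a transporter of the blood-brain barrier (1.20 ± 0.29), Flt1, a VEGF receptor (254 to 615 at P14 against 119 to 182 at P7, 1.17 ± 0.20), and Tagln of smooth muscle (0.99 ± 0.16). Of 13 genes of meninges and fibrillar collagens 5 were higher and none lower. The share called was 36.4% in the vessel list and 38.5% in the meningeal one. Igf2, a growth factor made by meninges, choroid plexus and vessels in the postnatal brain, read 1050, 1022, 926, 1274 and 1544 on the P14 arrays, against 231, 275, 282, 322 and 366 on the P7 arrays, a rise of 1.97 ± 0.14 (adjusted p = 8.6e-14). Col1a2, a chain of type I collagen, read 1207 to 1593 at P14 against 562 to 691 at P7 (1.15 ± 0.14). Igfbp2, a binding protein of these factors, fell (425 to 815 at P14 against 1309 to 1635 at P7, -1.45 ± 0.21).

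Genes of tissue that borders the hippocampus, and of blood, were measured too. Of 12 choroid plexus genes only Ttr and Enpp2 were higher and none was lower, with 16.7% called against 22% of all named genes. Ttr (transthyretin), the thyroid hormone carrier of choroid plexus, read 1989, 2306, 2436, 3517 and 2774 on the P14 arrays, against 1052, 1011, 1152, 1266 and 1218 on the P7 arrays (1.17 ± 0.15, adjusted p = 2.06e-07), while Folr1, Kl, Clic6 and Aqp1 were not called. Haemoglobin genes fell in 3 cases. Hbb-b1 read 375 to 655 at P14 against 1399 to 1592 at P7 (-1.55 ± 0.12), Hbb differed by -1.12 ± 0.12 and Hba-a3 by -1.01 ± 0.16, and Alas2, of haem synthesis in red cells, was the fourth of 11 called lower; probes of these near-identical genes may read each other's transcripts. The list means ran from 7.5 to 7.74 at P14 against 7.28 to 7.45 at P7 for choroid plexus, from 7.83 to 8.23 against 7.51 to 7.68 for meninges, and from 8.5 to 8.98 against 8.98 to 9.25 for red cells. The part of such tissue and of blood in the other results was not tested.

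On the P7 and P14 control arrays, Grik4 (1.66) and Nr3c2 (1.45) were higher on every hippocampal array than on every amygdalar one. Cacng5 (-1.26) was lower on every one, and the other 9 of the 12 subfield genes overlapped, at -1.46 (Wfs1) to 1.11. The striatal genes Six3 (-3.62), Penk (-3.42), Rgs9 (-2.61) and Drd2 (-2.46) were lower without overlap on the same arrays. These levels are set across regions that may have been normalized separately, and P21 and P75 were left out of the comparison.

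Several genes that neuronal activity induces rose. Of 19 measured activity-regulated and neurotrophin genes 8 were higher, none was lower and 11 were not called (median 0.47). Egr1, an immediate early transcription factor, read 11465, 12390, 13040, 16306 and 13407 on the P14 arrays, against 4028, 4356, 3617, 3789 and 4288 on the P7 arrays, a 3.3-fold rise (1.72 ± 0.10, adjusted p = 1.01e-15). Arc, the immediate early protein that removes AMPA receptors from synapses, read 448 to 587 at P14 against 182 to 254 at P7 (1.28 ± 0.18, adjusted p = 6.64e-07), Nptx1, a pentraxin that clusters them, differed by 1.14 ± 0.11, and Nr4a1 by 0.99 ± 0.13. Bdnf, the neurotrophin, read 442 to 571 at P14 against 335 to 417 at P7 without overlap but was not called (0.47 ± 0.18, adjusted p = 0.0639). Of 17 axon guidance genes 8 were higher and none lower with all arrays, among them Ntn1, Slit1 and 3 receptors of the Unc5 family; with P14 arrays 1 to 3 alone 3 were higher and 1 lower, without P14 array 5 there were 4 and 1, and without P7 array 5 there were 5 and none.

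Genes of thyroid hormone response and transport went both ways. Klf9, a transcription factor induced directly by the hormone, read 919 to 1595 at P14 against 509 to 650 at P7 (1.03 ± 0.16, adjusted p = 3.51e-06), and Hr (hairless), another direct target, read 391 to 546 at P14 against 273 to 337 at P7 (0.62 ± 0.17, adjusted p = 0.0063). Hr was not called with P14 arrays 4 and 5 alone (adjusted p = 0.0726). Rxrg, the retinoid X receptor γ that partners nuclear receptors, read 474, 370, 386, 390 and 366 on the P14 arrays, against 957, 1256, 1194, 1417 and 1096 on the P7 arrays, a difference of -1.57 ± 0.18 (adjusted p = 8.43e-09). Crym, which binds the hormone in the cytosol, read 1785, 1888, 1887, 1922 and 1805 on the P14 arrays, against 5188, 4448, 5777, 6452 and 4869 on the P7 arrays. Its P14 readings were close together and below every P7 reading (-1.51 ± 0.14, adjusted p = 8.66e-11). Of the 13 measured, 5 were higher (Ttr, Nrgn, Klf9, Hr, Rasd2) and 4 lower (Rxrg, Crym and Thra among them).

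The stress axis and serotonin were covered by a list each. Of 15 stress peptide and corticosteroid genes 3 were higher (Ucn, Nr3c2, Sgk1) and none lower (median 0.11), with 20% called against 22% of all named genes. Nr3c2, the mineralocorticoid receptor, read 1875 to 2269 at P14 against 1032 to 2001 at P7 and overlapped on 1 P7 array (0.54 ± 0.13, adjusted p = 0.0016). Nr3c1, the glucocorticoid receptor, was not called (0.58 ± 0.24, adjusted p = 0.0783; adjusted p = 0.0126 with P14 arrays 4 and 5 alone), nor was Crh, corticotropin-releasing hormone (0.32 ± 0.27, adjusted p = 0.449), whose P14 arrays ranged from 240 to 940 and which was called higher with arrays 1 to 3 alone (adjusted p = 0.0103). Of 17 serotonin genes only Htr6 and Htr1a were called, both higher (11.8%); the list was dim, at a mean log2 level of 6.99 to 7.39 at P14 against 6.9 to 7.13 at P7, and dim features were seldom called. Htr1a, an inhibitory receptor dense in hippocampus, read 606 to 776 at P14 against 487 to 613 at P7 (0.45 ± 0.13, adjusted p = 0.0139), and Htr6, an excitatory one, read 164 to 435 at P14 against 149 to 288 at P7 (0.81 ± 0.21, adjusted p = 0.00401), with overlap in both. Htr1a was not called with P14 arrays 1 to 3 alone (adjusted p = 0.0746), nor Htr6 with arrays 4 and 5 alone (adjusted p = 0.231). Slc6a4, the serotonin transporter that paroxetine blocks, read 50.8 to 101 at P14 against 70.1 to 89.4 at P7 and was not called (-0.15 ± 0.20, adjusted p = 0.669).

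The exposed hippocampus took a different step in many genes. The difference of steps, control minus exposed, was called for 3828 features (14.5%) and 1404 named genes (14.6%), 316 (3.28%) higher and 1088 (11.3%) lower. The random probe read 48.1 to 49.3 at P14 and 51.4 to 54.6 at P7 on the exposed arrays, above every control hippocampal array of both ages, and with its reading as a covariate 533 features were called. The 2 steps share no arrays, and across the 9627 genes the differences correlated at r = 0.324 (rank correlation 0.205), a description over genes that are not independent. Of the genes called higher in control hippocampus 487 were also higher in the exposed (50.6% of the control list, 39.9% of the exposed one, with 12.7% of all named genes higher in the exposed), and of those called lower 105 were also lower (9.08% and 28.7%, with 3.8% of all named genes lower in the exposed). A further 133 genes were called in opposite directions in control and exposed hippocampus.

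Ribosomal protein genes took a smaller step in the exposed hippocampus. Their median step was -0.80 with 57 of 63 lower in control hippocampus and -0.15 with 6 lower in exposed hippocampus, and 43 had a difference of steps called lower and 1 higher, against 11.3% and 3.28% of all named genes. Their mean log2 level was 10.70 to 10.94 at P14 and 11.56 to 11.69 at P7 in control hippocampus, and 10.74 to 10.77 at P14 and 10.86 to 10.91 at P7 in exposed hippocampus. The P14 levels of both arms overlapped, and it was the P7 level that lay lower in the exposed. For Rps18 the control step of -1.63 ± 0.11 stood beside -0.12 ± 0.11 in exposed hippocampus, a difference of -1.51 ± 0.16 (adjusted p = 5.87e-09). With the random probe as a covariate 5 of the 63 had a called difference of steps, all lower, with a median of -0.55 in place of -0.66.

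Energy, astrocyte and cholesterol genes also had a lower step in control hippocampus than in exposed. Oxidative phosphorylation genes had a median step of -0.19 in control and 0.39 in exposed hippocampus, and 24 of 40 differences were called lower. Fuel genes had medians of 0.04 and 0.65, with 17 of 31 differences lower. For astrocytes the medians were 0.23 and 0.75, with 15 of 27 lower, and for cholesterol synthesis -0.65 and -0.02, with 13 of 24 lower. None of these 4 lists had a difference called higher. With the probe covariate the counts were 4, 2, 2 and 0, while the median differences of steps were -0.51, -0.44, -0.46 and -0.54 in place of -0.61, -0.67, -0.56 and -0.57. These were not the only such lists. Lower and higher differences numbered 11 and 1 of 23 immature neuron genes, 4 and 0 of 10 matrix genes and 10 and 2 of 32 release genes. They numbered 6 and 2 of 21 GABA genes and 7 and 2 of 26 postsynaptic genes, against 11.3% and 3.28% of all named genes. With the probe covariate the lower counts of these lists were 2, 0, 3, 0 and 1. At P7 the mean log2 level of fuel genes was 11.59 to 11.68 in control and 10.28 to 10.32 in exposed hippocampus. For release genes it was 11.86 to 11.94 and 11.01 to 11.11, and for the dim cell cycle genes 7.53 to 7.65 and 7.17 to 7.39. Olfactory and vomeronasal receptors, the dimmest list, lay higher in the exposed (5.93 to 5.98 and 6.38 to 6.46). The part of brightness in these differences was not tested. Gpx4, which repairs oxidised membrane lipids, had -1.09 ± 0.13 in control and 0.59 ± 0.14 in exposed hippocampus (adjusted p = 5.04e-08). Ckb, the brain creatine kinase, had -0.42 ± 0.12 and 1.13 ± 0.12 (adjusted p = 1.96e-08). Its control step was not called with P14 arrays 4 and 5 alone (adjusted p = 0.185).

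Many myelin genes rose in both arms. Of 22 myelin genes 13 were higher in each arm, and 6 differences of steps were called, 5 higher and 1 lower. Of the 5, none was called with the random probe as a covariate, and the list then had 1 difference, lower; with only the arrays compared 2 were higher, with P14 arrays 1 to 3 alone 2, and with quantile normalization 3. Cldn11 rose by 3.33 ± 0.25 in control and 2.50 ± 0.26 in exposed hippocampus, a difference of 0.83 ± 0.36 that was not called (adjusted p = 0.122), and Mbp by 3.27 ± 0.17 and 2.56 ± 0.18, a difference of 0.71 ± 0.24 that was (adjusted p = 0.047). The Mbp difference was 0.06 ± 0.41 with the probe covariate (adjusted p = 0.971) and 0.36 ± 0.16 with P14 arrays 1 to 3 alone (adjusted p = 0.12), and it was not called with only the arrays compared either (adjusted p = 0.162). Grin2a (1.67 ± 0.12 and 1.56 ± 0.13) had a difference of 0.11 ± 0.18, not called (adjusted p = 0.756), which leaves room for differences within about 2 of these standard errors. A few genes rose in control hippocampus, did not rise in the exposed and had a called difference of steps. Ttr had 1.17 ± 0.15 in control and -0.41 ± 0.16 in exposed hippocampus (adjusted p = 3.33e-06), Alox15, a lipoxygenase, had 1.20 ± 0.19 and -0.60 ± 0.20 (adjusted p = 1.57e-05), and Or10a3, an olfactory receptor, had 1.13 ± 0.16 and -0.15 ± 0.17 (adjusted p = 0.000163). With the probe covariate the difference was called for Ttr (adjusted p = 0.00126) and not for Alox15 (1.42 ± 0.48, adjusted p = 0.13) or Or10a3 (1.23 ± 0.41, adjusted p = 0.119). Olfactory and vomeronasal receptors as a whole, 1239 measured, had a median step of 0.11 in control and -0.15 in exposed hippocampus, 55 differences higher (4.44%, against 3.28% of all named genes) and 5 lower, and 3 and none with the probe covariate.

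**Figure D4:**
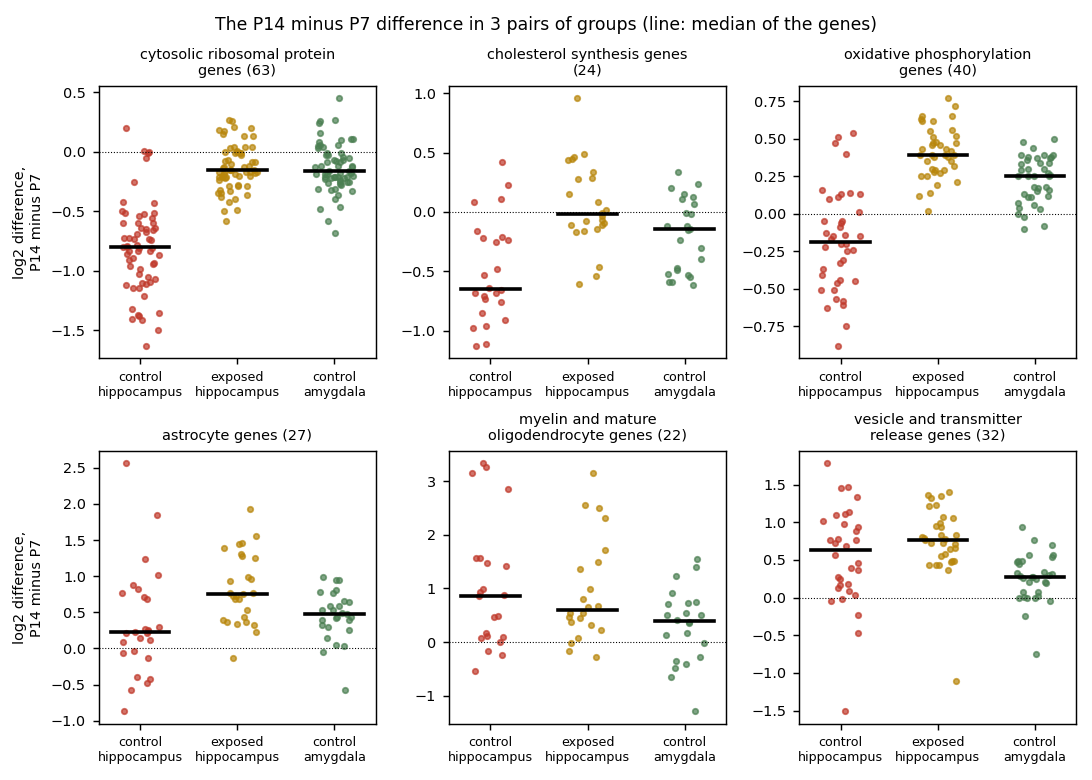
Log2 difference, P14 minus P7 (vertical axis), of each measured gene of 6 lists in control hippocampus, exposed hippocampus and control amygdala, with the median as a line; scales differ between panels. Ribosomal protein genes have medians of -0.80, -0.15 and -0.16 in that order.

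Set against the control amygdala, 2677 features (10.1%) and 991 named genes (10.3%) had a different step, 317 (3.29%) higher in hippocampus and 674 (7.0%) lower. Fitted on the 20 arrays compared in place of all 78, 1084 features were called. Of the genes called higher in hippocampus 358 were also higher in amygdala (37.2% and 51.1% of the 2 lists, with 7.27% of all named genes higher in amygdala), of those called lower 111 were also lower (9.6% and 40.7%, with 2.84% lower in amygdala), and 30 went opposite ways. Across genes the steps correlated at r = 0.309 (rank correlation 0.253), again with no shared arrays.

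Several myelin genes rose more in the hippocampus. Mbp had 3.27 ± 0.17 in hippocampus and 1.39 ± 0.21 in amygdala (adjusted p = 8.41e-06 for the difference), Mobp had 3.16 ± 0.20 and 0.71 ± 0.32 (adjusted p = 9.26e-05), and 8 of 22 differences were called, all higher. With only the 20 arrays 5 were, the Mbp difference then had adjusted p = 0.0454 and that of Mobp was not called (adjusted p = 0.0788). The amygdalar arrays already had a high level of the list at P7, except the lowest. Their mean log2 level ran from 8.64 to 9.53 at P7 (median 9.46) and from 9.33 to 9.55 at P14 (median 9.49). In hippocampus it ran from 8.47 to 8.64 at P7 and from 9.45 to 9.86 at P14. Release genes had 11 of 32 differences higher and 1 lower, and postsynaptic genes 9 of 26 higher and none lower; with only the 20 arrays these were 7 and 4 higher. Snap25 had 1.78 ± 0.09 and 0.57 ± 0.10 (adjusted p = 6.81e-09), and Atp2b2 had 1.63 ± 0.09 and 0.21 ± 0.10 (adjusted p = 5.62e-12). Wipf3 had 2.78 ± 0.14 and 0.62 ± 0.16 (adjusted p = 1.22e-10).

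The falls differed too. Ribosomal protein genes had a median of -0.80 in hippocampus and -0.16 in amygdala, where 2 were called lower, and 34 of 63 differences were called, all lower; 24 were with the 20 arrays alone. Immature neuron genes had medians of -0.87 and -0.32, with 10 of 23 differences lower, 5 with the 20 arrays alone and 5 with the probe covariate, and a median difference of steps of -0.49 with all arrays. Dcx fell in both (-2.07 ± 0.19 and -1.38 ± 0.18), and its difference was not called (adjusted p = 0.0699). Crym fell in hippocampus and rose in amygdala (-1.51 ± 0.14 and 0.70 ± 0.20, adjusted p = 3.76e-08), Calb2 fell in hippocampus and was not called in amygdala (-1.16 ± 0.18 and 0.35 ± 0.15, adjusted p = 4.41e-07), and Rxrg likewise (-1.57 ± 0.18 and 0.14 ± 0.15, adjusted p = 1.81e-08). Mfap4, a protein of elastic fibres, and Mmp14, a membrane metalloproteinase, had differences of steps of -1.58 ± 0.28 and -1.58 ± 0.30; the control step of Mmp14 was not called with P14 arrays 4 and 5 alone (adjusted p = 0.0503). Klf9 rose in both (1.03 ± 0.16 and 1.24 ± 0.14), and the difference was not called (adjusted p = 0.559).

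The later ages, given with no test since the steps share the P14 arrays, place this week in the course to adulthood. Mbp read 9.86 ± 0.14 at P7, 13.13 ± 0.65 at P14, 14.73 ± 0.13 at P21 and 14.66 ± 0.11 at P75 (mean log2 ± SD, n = 5 each), so more of its rise on the log scale came before P14 than after. Mog went the other way in time, at 7.66 ± 0.21, 8.64 ± 0.46, 10.32 ± 0.09 and 10.31 ± 0.13, with the larger part after P14. Gpr17 was highest at P14, at 10.94 ± 0.09, 12.39 ± 0.15, 11.79 ± 0.19 and 11.13 ± 0.07. Snap25 stayed high (15.17 ± 0.12 at P21 and 15.16 ± 0.07 at P75, after 14.96 ± 0.18 at P14), while Syn1 was 13.72 ± 0.16 at P14 and 12.47 ± 0.10 at P21. Grin2b, which overlapped between P7 and P14, was 12.82 ± 0.26 at P14 and 11.07 ± 0.21 at P21. Dcx was 12.27 ± 0.15, 10.21 ± 0.35, 8.32 ± 0.28 and 7.37 ± 0.48 over the 4 ages. Rps18 was 10.77 ± 0.22, 10.54 ± 0.15 and 10.60 ± 0.07 from P14 on, after 12.39 ± 0.12 at P7. Many features shifted between P14 and P21 (14258 called, 54.0%), so levels across that interval are set on arrays that differ widely. The mean log2 level of release genes was 12.28 to 12.62 at P14 and 11.48 to 11.64 at P21. For fuel genes it was 11.54 to 11.81 and 10.46 to 10.58. Myelin genes (9.45 to 9.86, then 10.28 to 10.4) and olfactory and vomeronasal receptors (5.98 to 6.13, then 6.38 to 6.43) were higher at P21. The part of this shift in the courses of Syn1 and Grin2b was not tested.

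**Figure D5:**
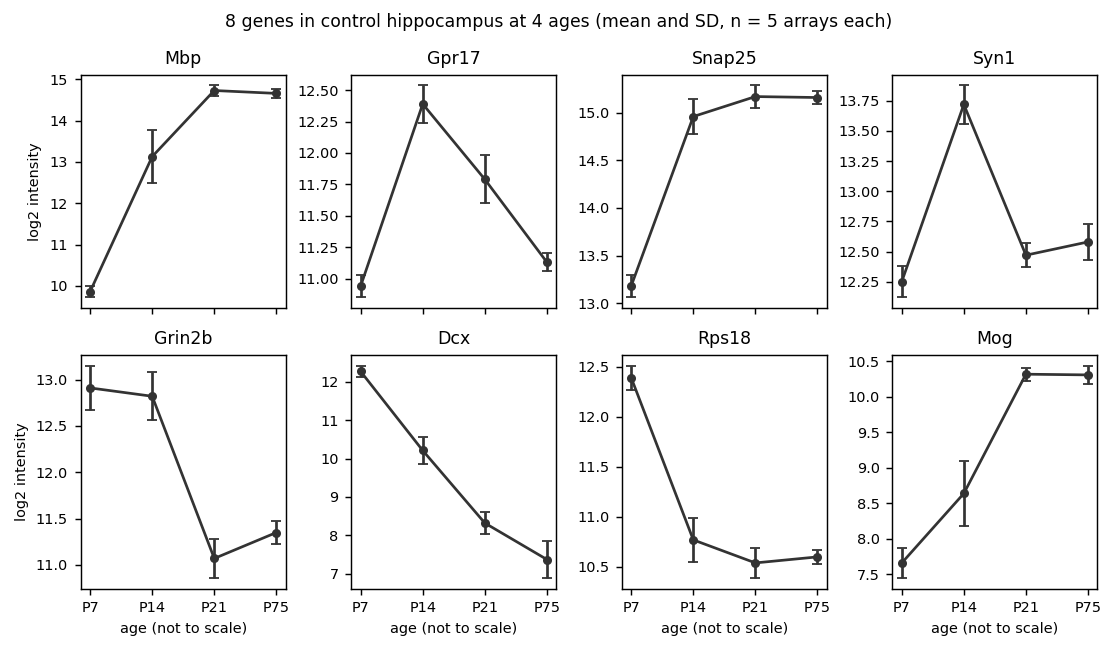
Mean log2 intensity ± SD (vertical axis) of 8 genes in control hippocampus at P7, P14, P21 and P75, with 5 arrays at each age and ages spaced evenly. Gpr17 and Syn1 are highest at P14, Dcx is lower at each later age, and Grin2b is at a similar level at P7 and P14.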

How the data were processed

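RNA of whole hippocampus and amygdala was hybridised to single-colour NimbleGen arrays. The values used are the authors' deposited normalized intensities of 78 arrays, linear and not centred, for 26419 features and 1 random-sequence control probe; the normalization of these values is not given in the sources used here, though headers of the authors' comparison tables mention RMA. The 312 other per-array columns, in the authors' tables of exposed against control rats, were not used. Names came from accessions matched to RefSeq (GRCr8, names only): 9747 features matched, 16672 did not, and each of 9627 genes was read by its brightest feature (97 had several).

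Log2 intensities were fitted by group over 39 hippocampal arrays (78 in 16 groups for the comparison with amygdala) with lmFit and eBayes in limma 3.58.1 (R 4.3.3), and p-values were adjusted by Benjamini-Hochberg over all features. Named genes were the 10 largest called rises and falls and the 5 largest called step differences in each direction among genes brighter than the median (the rises and falls also without overlap between ages), the 4 largest called differences per list, and a fixed set of well-known genes; the text gives a selection by role, and some genes are not reported here. Members and lists were chosen with earlier results of these data known. On simulated data for 26419 features the step fit recovered 68 of 100 changes of 1 log2 and 12 of 100 of 0.5. All other simulated features were unchanged, while 5715 were called in the data, so the recovery in the real fit need not be the same. Same-numbered P14 and P7 arrays deviated together at r of -0.073 to 0.108, so the numbers were not taken to pair them. Alternatives are given in the closing section.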

Additional observations from a re-analysis of the deposited data

Results flagged for a closer look

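Among 254 groups of 5 arrays tested, for genes named and for array measures such as the random probe, 25 had 1 array far from the other 4. The criterion was Dixon's (gap over range above 0.71), where chance gives about 1 in 20 for independent, normally distributed values. Genes were tested on linear intensities and share the same arrays, so that share is only a rough guide. P14 array 5 was the high one for Cldn11 (4505, others 2422 to 2862), Mbp (19407, others 6425 to 8439), Rrm2 (239), Plk1 (348), Pvalb (316), Sst (4123), Ntsr2 (2181), Gjb6 (1326), Fnbp1l (2430) and Ckb (4522). On the other P14 arrays, Cdc20 (81.7) and Rpl14 (900) were low and Rxrg (474) high on array 1, Htr1a (606) was low on array 2, and Nr3c2 (2269) and Acat1 (1473) were high on array 4. At P7, Cd24 (3961) and Csf1r (510) were low on array 1, Slc12a5 (1559) was high on array 2, Or10a3 (342) on array 3, and Cacna1a (1398) and Plppr3 (940) on array 4. On P7 array 5, Rpl14 (2449) was low while Htr6 (288) and Acat1 (1914) were high. The part of tissue composition in these readings was not tested.

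The step of control hippocampus differed from that of exposed hippocampus on 3828 features by the step-by-treatment term, and from that of control amygdala on 2677 features by the step-by-region term.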

How the results depend on the processing

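Leaving out each control array in turn gave 5062 to 5491 features for the step, 3353 to 4280 for the difference from exposed hippocampus and 2302 to 2859 for the difference from amygdala. One by one, 124 of the genes named in the text were checked, and other names, most of them beside a list count, were not. All 113 called genes of the 124 kept their call and direction without each array. With P14 arrays 1 to 3 only, 112 of the 113 kept it, and with arrays 4 and 5 only, 107. Many of these genes were named for large called differences on the same arrays, so their calls do not show how others hold. Over all features 2819 calls were shared in direction by the 2 sets of P14 arrays, 52% and 50.2% of each. The replicate block gave 1935 features lower, 1388 genes (633 higher, 755 lower), 1517 features lower for the difference from exposed hippocampus and 726 (347 higher, 379 lower) for that from amygdala; same-numbered arrays share only a number. With the random probe as a covariate the difference from exposed hippocampus had 533 features (318 higher, 215 lower) and that from amygdala 912 lower. With only the arrays compared, the difference from amygdala had 1084 (491 higher, 593 lower). An unpaired test with Bonferroni correction and a fold of at least 1.5, as the authors' tables name, called 188 features; with Benjamini-Hochberg adjustment and no fold limit, an alternative chosen after seeing the data, it called 4264. The causes of these changes were not tested. None of the 124 genes checked reversed. Over all features 62 were called in opposite directions by P14 arrays 1 to 3 and by arrays 4 and 5. Dim features limit the calls: 1.93% of the dimmest 10% were called and 51.7% of the brightest 10%.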
